A study of Macaca mulatta with 30 samples.

Results

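The genes described here are 10 plasma carrier and acute phase proteins, ALB, TTR, RBP4, HPX, HP, AMBP, A1BG, AHSG, ORM1 and CRP, taken by symbol from the rhesus macaque (Macaca mulatta) expression table. All 10 listed genes are among its 21292 rows, and 10 of 10 passed the filter on low values that left 13550 genes for testing. RNA sequencing libraries came from liver, pancreas, parotid gland, submandibular gland and sublingual gland of 6 animals, 1 library per tissue and animal, so that each of the 5 tissues has 6 libraries. Animals 1 to 4 were female and animals 5 and 6 male, and all tissue was flash frozen. The salivary glands were labelled as left glands, except the parotid gland of animal 3, which carries an R. The labels name no treatment, genotype or age, and the study's stated interest was tissue contrasts within an animal. Levels are in TPM, an abundance per transcript length in which every library has the same total, so the sequencing depth behind each value is unknown.

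Most proteins dissolved in blood plasma are made by hepatocytes, the main cells of the liver, and secreted. Carriers move fatty acids, hormones, vitamins, heme and hemoglobin that would otherwise be insoluble or toxic. In the acute phase response, interleukin-6 and interleukin-1 from macrophages act on hepatocytes through STAT3 and C/EBP factors, the output of positive acute phase proteins such as CRP rises by a large factor, and that of negative ones such as albumin, transthyretin, RBP4 and fetuin-A falls.

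The tissue labels were compared with marker lists before the values were used. The summed level of 18 hepatocyte genes was 75429 to 105204 TPM in the 6 livers and 321 to 1447 TPM in the other 24 libraries, with 0 of 18 genes listed at 0 in every library of a tissue. The pancreas library of animal 4 had 3804 TPM of 9 acinar enzyme genes, against 170954 to 363364 TPM in the other pancreas libraries. Its submandibular library had 1574 TPM of 6 salivary serous genes, against 213234 to 308617 TPM in the others. Both of these libraries were high in the adipocyte list, at 18344 and 8411 TPM, and in the red blood cell list, at 13953 and 10903 TPM. The parotid library of animal 6 held 84656 TPM of 7 skeletal muscle genes. Results that rest on these 3 libraries, called the 3 libraries that stand apart, are given with and without them. The sublingual library of animal 4 was also low in its tissue's markers, with 3340 TPM of 5 sublingual mucous genes, against 33382 TPM in animal 1 and 168736 to 359164 TPM in the other 4. Leaving it out, a choice made after seeing the data, changed no call of a member in the comparisons with sublingual gland. The muscle list also reached 17222 and 7119 TPM in the sublingual libraries of animals 5 and 1 and 6716 TPM in the parotid library of animal 1. In tissue libraries, fewer cells of a type and less RNA per cell cannot be told apart.

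Every one of the 10 genes was highest in liver in 6 of 6 animals. Their summed level was 8.65% ± 2.5 of all liver TPM (SD, n = 6), with a lowest, median and highest of 5.05, 8.75 and 11.1%. It was 0.243% ± 0.144 in pancreas, 0.0523% ± 0.0139 in parotid gland, 0.0727% ± 0.0494 in submandibular gland and 0.0721% ± 0.0116 in sublingual gland (SD, n = 6 each). The pancreas mean includes animal 3, at 0.512%, and animal 4, at 0.294%, with 0.121 to 0.205% in the other pancreas libraries. The submandibular mean includes animal 4, at 0.167%, with 0.0351 to 0.0805% in the other 5 libraries. The lowest of the 6 livers was above the highest of the 24 other libraries for 10 of the 10 genes, and for 6.76% of all genes tested. The gap between those 2 values ran from 1.84-fold for TTR, through 4.39-fold for RBP4 and 7.75-fold for CRP, to 79.2-fold for A1BG.

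**Figure D1:**
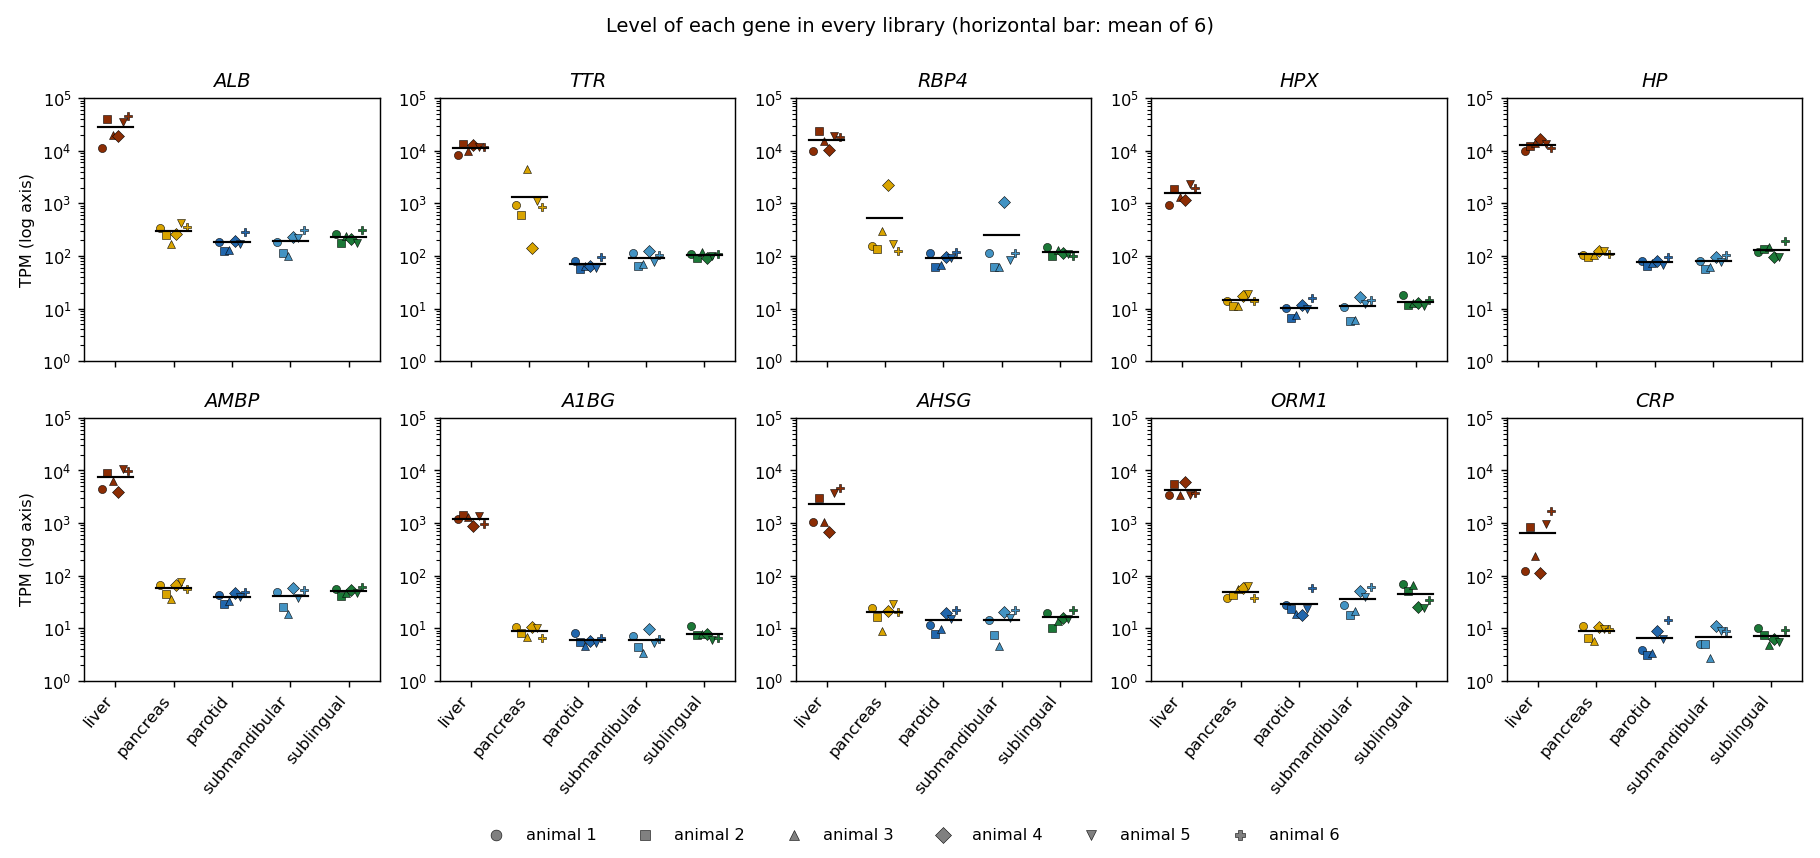
Level of each of the 10 genes in TPM (log axis) in every library of the 5 tissues, with 1 symbol per animal and a horizontal bar at the mean of 6. Liver is highest for every gene, and the pancreas library of animal 3 for TTR (4425 TPM) and the pancreas and submandibular libraries of animal 4 for RBP4 (2227 and 1054 TPM) lie far above the other values outside liver.

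The first 3 genes carry small molecules. ALB encodes albumin, the most abundant plasma protein, which binds fatty acids, bilirubin and many drugs. Its level in liver was 11506, 27755 and 46181 TPM (lowest, median and highest of 6), and its mean of 28771 TPM ranked 3 among all genes in that tissue. Outside liver the lowest, median and highest ALB levels were 172, 304 and 431 TPM in pancreas, 123, 175 and 291 TPM in parotid gland, 101, 202 and 317 TPM in submandibular gland, and 176, 225 and 305 TPM in sublingual gland. The ranges of those 4 tissues overlapped throughout, and none reached that of liver.

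TTR encodes transthyretin, which carries thyroxine and, through RBP4, retinol. It was at 8140, 11819 and 13451 TPM in liver (lowest, median and highest). In pancreas it was at 142, 889 and 4425 TPM, with animal 4 lowest and animal 3 highest. In the glands it was at 56.0, 63.5 and 93.6 TPM in parotid, 64.7, 90.2 and 122 TPM in submandibular, and 89.7, 104 and 120 TPM in sublingual. All 6 pancreas values were above all 18 gland values, and all were below the lowest liver.

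RBP4 encodes the plasma carrier of retinol, which travels bound to transthyretin. It was at 9786, 16831 and 23336 TPM in liver, where its mean ranked 7 among all genes. In pancreas 5 libraries held 124 to 296 TPM and that of animal 4 held 2227 TPM. In submandibular gland 5 libraries held 60.4 to 114 TPM and that of animal 4 held 1054 TPM. Parotid gland had 60.7, 93.5 and 118 TPM and sublingual gland 99.9, 111 and 149 TPM (lowest, median and highest). Without the libraries of animal 4, the pancreas values were all above the parotid values and overlapped those of sublingual gland.

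The next group scavenges hemoglobin and heme. HP encodes haptoglobin, a positive acute phase protein that binds free hemoglobin. It was at 9939, 12877 and 16823 TPM in liver (lowest, median and highest), 95.9, 106 and 125 TPM in pancreas, 63.3, 77.0 and 96.0 TPM in parotid gland, 56.4, 77.5 and 104 TPM in submandibular gland, and 94.5, 130 and 194 TPM in sublingual gland. It was the only one of the 10 genes whose mean outside liver was highest in sublingual gland, and the ranges of sublingual gland and pancreas overlapped. After trimmed-mean scaling its share of the liver mean was 1.31% in both sublingual and submandibular gland and 1.37% in parotid gland, so that this order depends on the scaling. Haptoglobin has a close relative, HPR, which has no row in the table, so reads of both genes may be counted under HP. How the authors divided reads between similar genes is not stated, so the HP values are uncertain to that extent.

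HPX encodes hemopexin, which binds free heme. Its liver level was 951, 1600 and 2309 TPM (lowest, median and highest), and its 24 values outside liver lay between 5.79 and 19.1 TPM. AMBP encodes a precursor that is cut into alpha-1-microglobulin, a heme-binding lipocalin, and bikunin, a protease inhibitor. It was at 3927, 7651 and 10612 TPM in liver and between 18.4 and 76.3 TPM in every other library. For both genes the means of pancreas and of the 3 glands were within a narrow band, 10.3 to 14.4 TPM for HPX and 39.8 to 57.1 TPM for AMBP.

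A1BG encodes alpha-1-B glycoprotein, a plasma protein of the immunoglobulin superfamily. It was at 867, 1259 and 1449 TPM in liver and 3.42 to 10.9 TPM elsewhere. AHSG encodes fetuin-A, which keeps calcium phosphate in solution and is a negative acute phase protein. It was at 664, 2043 and 4594 TPM in liver and 4.69 to 28.5 TPM elsewhere. A1BG had the widest gap between liver and the rest of the 10 genes, and AHSG was the second most variable between livers.

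ORM1 encodes orosomucoid, a positive acute phase protein that binds basic drugs. It was at 3358, 3585 and 5907 TPM in liver (lowest, median and highest), 37.5, 49.3 and 64.5 TPM in pancreas, 18.1, 23.1 and 59.0 TPM in parotid gland, 17.6, 33.1 and 59.6 TPM in submandibular gland, and 24.2, 42.5 and 69.7 TPM in sublingual gland. The highest parotid value is that of animal 6, and the other 5 parotid libraries held at most 27.5 TPM. Its near copy ORM2 has no row in the table, so reads of both genes may be counted under ORM1. CRP encodes C-reactive protein, which binds phosphocholine and activates complement. It was at 110, 543 and 1668 TPM in liver and between 2.71 and 14.2 TPM in every other library, and it had the lowest mean of the 10 genes in liver, ranked 206 among all genes.

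The comparison of liver with each other tissue asked how far each gene's level in liver exceeded that in the rest. Differences were tested on log2(TPM + 1) with limma, in a model of tissue and animal over all 30 libraries, with p-values adjusted by Benjamini-Hochberg over the 13550 genes of each comparison, and a gene was called below an adjusted p of 0.05. All 10 genes were called higher in liver than in pancreas, as were 23.6% of all genes. The same held for parotid gland (10 of 10, against 53.4% of all genes), submandibular gland (10 of 10, against 45.1%) and sublingual gland (10 of 10, against 18.7%). The median log2 difference of the 10 genes was 6.49, 7.30, 7.07 and 6.77 for the 4 tissues in that order, and that of all genes was 0.36, 0.84, 0.70 and 0.10. Trimmed-mean scaling, which moved the medians of all genes in the 10 comparisons between tissues to between -0.01 and 0.04, left 10 of 10 genes called in each liver comparison. It lowered the members' median log2 difference to 6.03 for pancreas, 6.09 for parotid gland, 6.10 for submandibular gland and 6.59 for sublingual gland. Against parotid gland A1BG, the highest, moved from 7.43 to 6.29 and CRP, the lowest, from 5.91 to 4.79.

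Within this group the log2 differences between liver and the glands were close to each other. Against parotid gland, 9 of the 10 genes lay between 6.98 for AHSG and 7.43 for A1BG, and CRP was lowest at 5.91 (SE 0.45, limma adjusted p 2.04e-11). CRP was also the lowest against submandibular gland at 5.80 and against sublingual gland at 5.66 (SE 0.45 each, limma adjusted p 3.19e-11 and 5.9e-11). Against pancreas the order differed, with TTR lowest at 3.75 (SE 0.44, limma adjusted p 1.16e-07), CRP next at 5.41 (SE 0.45, adjusted p 1.66e-10) and RBP4 at 5.88 (SE 0.52, adjusted p 6.74e-10). The other 7 genes lay between 6.38 for ORM1 and 6.95 for A1BG. Each of these differences had the same direction in 6 of 6 animals.

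The next comparisons set each gland against pancreas. TTR was lower in the glands by a wide margin, at a mean of 69.2 TPM in parotid, 91.7 TPM in submandibular and 103 TPM in sublingual gland against 1341 TPM in pancreas. On the log2 scale it fell by 3.59 in parotid gland (SE 0.44, limma adjusted p 1.57e-06), by 3.21 in submandibular gland (adjusted p 1.02e-05) and by 3.01 in sublingual gland (adjusted p 1.49e-05), and it was lower in 6 of 6 animals each time. Without the pancreas library of animal 3, the highest, the log2 differences were -3.09, -2.70 and -2.51, and without the 3 libraries that stand apart they were -4.19, -3.80 and -3.52, all still called. RBP4 was lower in parotid gland than in pancreas in 6 of 6 animals, by 1.54 on the log2 scale (SE 0.52, adjusted p 0.0457). That call was lost with trimmed-mean scaling (log2 difference -0.77, adjusted p 0.158) and quantile normalisation (-0.84, adjusted p 0.247). It was also lost with only the 12 libraries compared (adjusted p 0.082), with no filter (adjusted p 0.0642), without the replicate block (adjusted p 0.0717) and without animal 1, 2, 3 or 5 (adjusted p 0.0672, 0.0879, 0.199 and 0.0986). Leaving out the pancreas library of animal 4 alone gave a log2 difference of -1.05 that was not called (adjusted p 0.16), while leaving out all of animal 4 (-0.95, adjusted p 0.026) or the 3 libraries that stand apart (-0.97, adjusted p 0.0177) gave smaller differences that were called.

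The differences of RBP4 from pancreas were -1.02 for submandibular gland (adjusted p 0.24) and -1.15 for sublingual gland (adjusted p 0.159), neither of them called by limma. The sublingual difference was called with trimmed-mean scaling (-1.43, adjusted p 0.00558) and with quantile normalisation (-1.79, adjusted p 0.00763). Without the 3 libraries that stand apart the submandibular difference was -1.0 and was called (adjusted p 0.0102). In all, 2 of the 10 genes were called lower in parotid gland than in pancreas, where 13.6% of all genes were, 1 of 10 in submandibular gland (7.46% of all genes) and 1 of 10 in sublingual gland (3.51% of all genes). No member was called higher in a gland. The direction of the members that were not called depends on the scaling: 10 of 10 were lower in parotid gland than in pancreas, but with trimmed-mean scaling 7 of 10 were higher, and 4 of 10 in submandibular gland. Without the 3 libraries that stand apart, ORM1 was also called lower in parotid gland, and ALB, RBP4 and A1BG in submandibular gland.

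**Figure D2:**
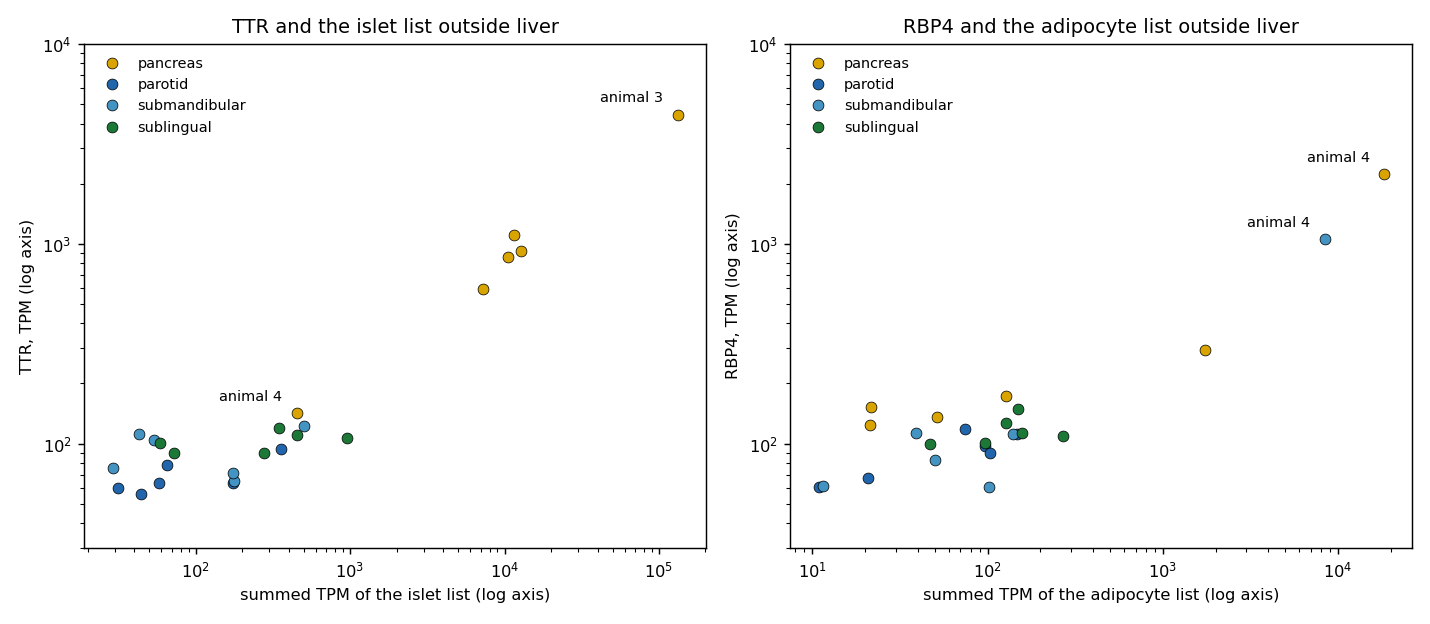
TTR against the summed islet list and RBP4 against the summed adipocyte list, both in TPM on log axes, with 1 point for each of the 24 libraries outside liver, coloured by tissue. The highest TTR and islet values belong to the pancreas library of animal 3, the lowest of both in pancreas to that of animal 4, and the 2 libraries of animal 4 are highest in both RBP4 and the adipocyte list.

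Most genes of the islets, the hormone-secreting cells of the pancreas, were highest and lowest in the same pancreas libraries as TTR. Of 9 islet genes, 8 were highest in animal 3 and 8 were lowest in animal 4. The exception was PPY, the pancreatic polypeptide gene, highest in animal 2 and lowest in animal 6. Among the 8, CHGA, PCSK1, PCSK2 and SCG2 did not pass the filter on low values. INS, the insulin gene, was at 127239 TPM in the pancreas of animal 3 and at 408 TPM in that of animal 4, with 6281 to 11444 TPM in the other 4. GCG, the glucagon gene, was at 835 TPM in animal 3 and 16.5 TPM in animal 4, with 325 to 550 TPM in the others. The summed level of 9 islet genes was 132653 TPM in animal 3, 451 TPM in animal 4 and 7208 to 12712 TPM in the others, with INS the bulk of the sum. The median islet gene was at 13.3 TPM in animal 3 and 4.17 TPM in animal 4, and at 14.7 TPM in animal 2 and 3.45 TPM in animal 6, so that the median does not follow TTR. The part of islet RNA in the TTR level was not tested.

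RBP4 was highest in libraries that were also high in other lists. The summed level of 7 adipocyte genes was 18344 TPM in the pancreas of animal 4 and 8411 TPM in its submandibular gland, the 2 libraries with 2227 and 1054 TPM of RBP4. The pancreas of animal 3 followed with 1747 TPM of the list and 296 TPM of RBP4, the third highest value of RBP4 outside liver. In the other 21 libraries outside liver the list summed to 10.9 to 269 TPM. ADIPOQ, the adiponectin gene, was at 328 TPM in the pancreas of animal 4 and at 88.8 TPM in that of animal 3. The same libraries of animal 4 were also the highest outside liver in the 6 macrophage genes, at 262 TPM in pancreas and 859 TPM in submandibular gland, against at most 102 TPM in the other 22. They were the highest in the red blood cell list too, at 13953 and 10903 TPM, against at most 468 TPM. The part of adipose, macrophage or blood RNA in these RBP4 values was not tested.

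Between the glands few of the 10 genes differed. Parotid and submandibular gland differed in 0 of 10 by limma, with 0 of 10 at an unadjusted p below 0.05, while 0.347% of all genes were called. HP was called lower in parotid than in sublingual gland, by 0.74 on the log2 scale (adjusted p 0.0145, lower in 6 of 6 animals), but its sign turned with quantile normalisation (0.63) and trimmed-mean scaling (0.31). It was the only member of 10 called there, against 40.6% of all genes called higher in sublingual gland. Against submandibular gland the result was alike: HP was the 1 member called, with a log2 difference of -0.72 (adjusted p 0.0228, lower in 5 of 6 animals) that became 0.44 with quantile normalisation and 0.12 with trimmed-mean scaling, and 27.2% of all genes were called higher in sublingual gland. The first call was lost without animal 1, 2 or 3 (adjusted p 0.0516, 0.0816 and 0.0774) and the second without animal 1, 2, 3 or 5 (adjusted p 0.0932, 0.158, 0.152 and 0.0595). The median log2 difference of all genes was -0.70 and -0.56 in these comparisons, and those of the 10 genes were -0.37 and -0.32. With trimmed-mean scaling the medians of the 10 genes became 0.61 and 0.49, and with quantile normalisation 0.69 and 0.61, and 10 of 10 genes then had a positive difference in both comparisons, none of them called.

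Set against the mean of the 6 livers, the levels outside liver were similar for 8 of the genes. Leaving out TTR and RBP4, the 192 values of 8 genes in 24 libraries ran from 0.20 to 2.15% of the liver mean, with a median of 0.728%. The 432 values of the 18 hepatocyte genes had a median of 0.735%, and their highest, 111%, was ARG1, an arginine-degrading enzyme of the urea cycle, in a sublingual library. In pancreas the mean share was 0.727% ± 0.153 for A1BG, 0.848% ± 0.0924 for HP, 1.06% ± 0.321 for ALB and 1.34% ± 0.340 for CRP (SD, n = 6), beside 0.915% ± 0.20 for the median hepatocyte gene. In parotid gland it was 0.495% ± 0.103 for A1BG, 0.594% ± 0.0891 for HP, 0.630% ± 0.212 for ALB and 1.00% ± 0.655 for CRP, beside 0.615% ± 0.133. The mean of the 6 livers was not the planned reference. As a percent of the same animal's liver, the planned measure, the 192 values ran from 0.243 to 9.81%, with 18 above 2%. CRP was then at 3.86% ± 4.19 in pancreas and 2.42% ± 2.96 in parotid gland (SD, n = 6). The median hepatocyte gene was at 1.09 and 0.731%. The shares of the liver mean also depend on the scaling. With trimmed-mean scaling they rose in parotid gland to 1.16% for A1BG, 1.37% for HP, 1.42% for ALB and 2.15% for CRP, beside 1.41% for the median hepatocyte gene, and in pancreas to 1.05, 1.21, 1.61 and 1.96%, beside 1.35%, so that the means of A1BG, HP and CRP were then higher in parotid gland than in pancreas, a difference that was not called. TTR stood apart in pancreas alone, at 5.22 to 39.0% of its liver mean in 5 libraries and 1.25% in that of animal 4.

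**Figure D3:**
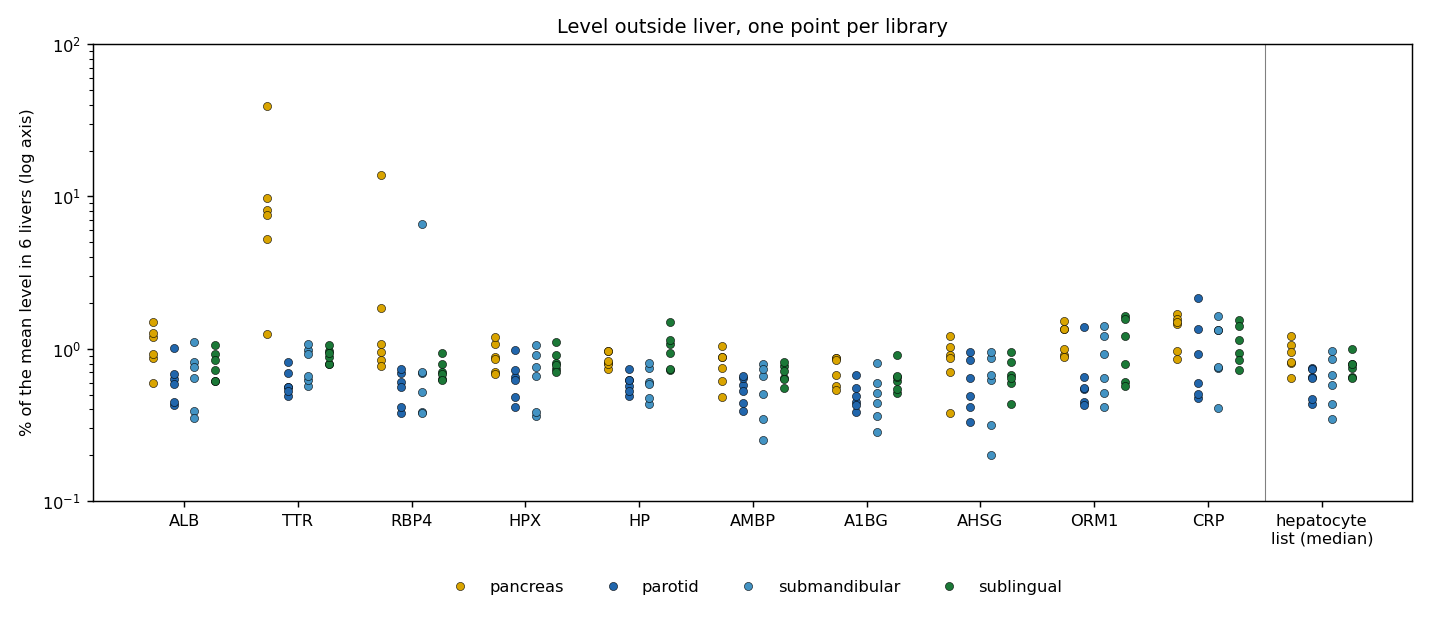
Level of each gene outside liver as a percent of its mean in the 6 livers (log axis), with 1 point per library and 1 column per tissue, and at the right the median over 18 hepatocyte genes. The points of 8 genes lie between 0.20 and 2.15%, as do the hepatocyte medians, while TTR in pancreas reaches 39.0% and RBP4 in the pancreas of animal 4 reaches 13.9%.

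Division by the liver of the same animal did not narrow the spread of these low levels. CRP in liver had an SD of 1.67 on the log2 scale between animals, and its levels outside liver an SD of 0.645. Divided by the level in the animal's own liver, they had an SD of 1.70. The spread was wider after that division for 10 of the 10 genes and for 18 of the 18 hepatocyte genes. Such a division adds the spread of the livers unless both levels vary closely together. A wider spread was therefore likely in advance, and no conclusion is drawn from these counts. Markers of other tissues were also present at low levels away from their tissue: the 9 acinar genes summed to 1314 to 4461 TPM in liver, and INS was at 42.8 to 413 TPM there. The part of RNA from other tissues in the values outside liver was not tested.

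The livers themselves differed in some of the genes far more than in others. CRP had the widest range, 15.1-fold between the lowest liver (animal 4, 110 TPM) and the highest (animal 6, 1668 TPM). AHSG followed with 6.92-fold and ALB with 4.01-fold, then AMBP (2.70-fold), HPX (2.43-fold) and RBP4 (2.39-fold). ORM1, HP, A1BG and TTR ranged over 1.76-fold, 1.69-fold, 1.67-fold and 1.65-fold. Both positive and negative acute phase proteins are in each of these sets.

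The 6 genes with the wider range had their 3 highest livers in animals 2, 5 and 6. CRP was at 849, 973 and 1668 TPM in those 3 livers and at 124, 237 and 110 TPM in animals 1, 3 and 4. AHSG was at 3049, 3721 and 4594 TPM in the first 3 and at 1033, 1037 and 664 TPM in the others. ALB, AMBP, HPX and RBP4 had the same 3 livers on top. That is 6 of 10 genes, or 60.0%. The same held for 24.7% of the 13550 genes tested and 37.7% of the 1053 genes with a liver mean of at least 100 TPM. For the members it was 6 of 10 after trimmed-mean scaling too, where the share of all genes was not counted. The 3 livers were picked after the values of these genes were seen, so the shares are a description and no test. The same 3 livers were on top for 12 of the 18 hepatocyte genes, whose median was 2089, 2165 and 1670 TPM in animals 2, 5 and 6 and 714, 1408 and 1103 TPM in animals 1, 3 and 4. Animals 2, 5 and 6 are 1 female and 2 males, and mitochondrially encoded genes took 10.5, 17.0 and 13.8% of TPM in their livers, against 24.7, 19.6 and 21.6% in animals 1, 3 and 4. The part of the mitochondrial share, or of a shift common to hepatocyte genes, in these differences was not tested.

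**Figure D4:**
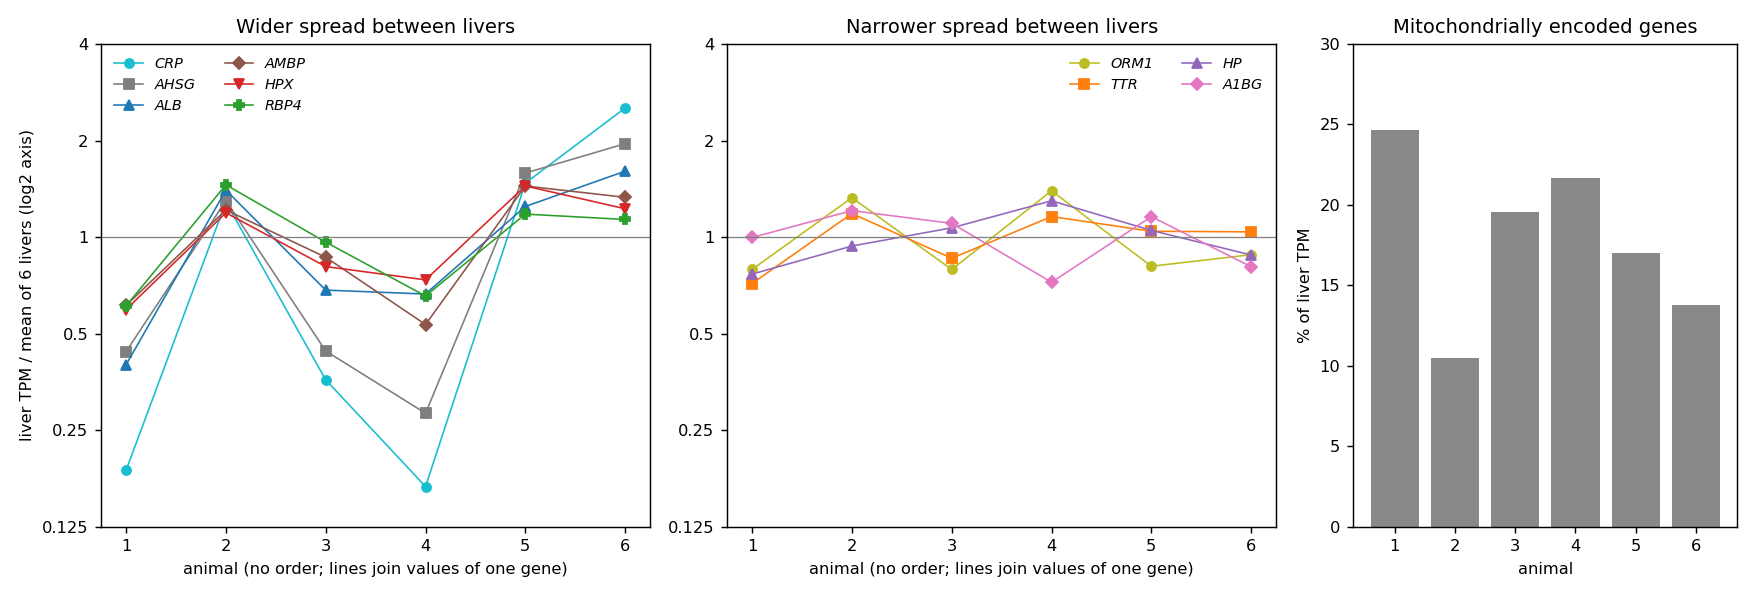
Liver level of each gene divided by its mean over the 6 livers (log2 axis), for the 6 genes of wider range (left) and the 4 of narrower range (middle), and the percent of liver TPM in 13 mitochondrially encoded genes (right, bars). CRP runs from 0.167 to 2.53 times its mean, animals 2, 5 and 6 lie above 1 for the 6 genes at the left, and those 3 livers have the lowest mitochondrial shares.

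Among other acute phase genes the livers were not ranked in one order. SAA1, serum amyloid A, a major positive acute phase protein, was at 2872 TPM in the liver of animal 1 and 969 TPM in that of animal 3, and between 72.3 and 222 TPM in the other 4, so that it was lowest in animal 2. HAMP, the iron hormone hepcidin, was at 654 to 3629 TPM, with animal 4 highest, where CRP was lowest. SERPINA3, a protease inhibitor, had its 3 highest livers in animals 2, 5 and 6, at 1256, 1103 and 1458 TPM. SAA1 and SAA2 are near copies, so how reads were divided between them is uncertain.

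A list of 21 further positive acute phase genes has 20 in the table, and 20 of 20 were called higher in liver than in pancreas, parotid gland and submandibular gland, and 18 of 20 than in sublingual gland. The shares of all genes were 23.6, 53.4, 45.1 and 18.7%, as above. Their median log2 differences were 6.04, 6.84, 6.67 and 6.13. The 4 highest in liver were SERPINA1, alpha-1-antitrypsin, at a mean of 10588 TPM, SAA4 at 3875 TPM, and the fibrinogen chain genes FGB at 3282 TPM and FGG at 2449 TPM. Outside liver, SERPINA1 was at most 196 TPM and FGB at most 40.5 TPM. The 2 genes not called against sublingual gland were chosen after their values were seen: SERPINA3, at a mean of 847 TPM in liver and 609 TPM in sublingual gland, and PLA2G2A, a secreted phospholipase, at 65.5 and 29.7 TPM.

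In sublingual gland 7 of these 20 genes were called higher than in parotid gland and 6 of 20 higher than in submandibular gland, against 40.6 and 27.2% of all genes, so these counts are near the background. SERPINA3 was at 46.9, 354 and 1961 TPM in sublingual gland (lowest, median and highest) and at most 30.6 TPM in the other 2 glands, a log2 difference of -4.39 for parotid (limma adjusted p 1.19e-06) and -4.16 for submandibular gland (adjusted p 6.45e-06). CFB, complement factor B, was at 20.8 to 128 TPM in sublingual gland and 4.59 to 14.1 TPM in the others. Both calls held with trimmed-mean scaling for both genes. SAA1 and SAA2 were also called, at means of 60.6 and 80.8 TPM in sublingual gland, but neither was called with that scaling (adjusted p 0.166 and 0.0635 against parotid gland). Here the acute phase genes that differed were chosen after their values were seen, and of the 10 members HP was the one among them.

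Of 17 other plasma carriers listed, 14 are tested, and 13 of the 14 were called higher in liver than in each of the other 4 tissues, with median log2 differences of 5.24, 6.11, 6.14 and 5.81, where 23.6, 53.4, 45.1 and 18.7% of all genes were called. The 4 highest in liver were APOH, which binds phospholipids, at a mean of 3640 TPM, HRG, which binds heparin and metals, at 1825 TPM, CLU, an extracellular chaperone, at 1697 TPM, and GC, the vitamin D carrier, at 1424 TPM. APOH, HRG and GC were at most 46.3, 20.3 and 18.7 TPM in any library outside liver. TCN2, which carries vitamin B12, was the gene not called, at means of 22.5 TPM in liver and 40.5 TPM in sublingual gland.

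TTR was not alone in being higher in pancreas than in the glands. In parotid gland 1 of 20 acute phase genes and 3 of 14 carriers were called lower than in pancreas, beside 13.6% of all genes. In submandibular gland the counts were 1 of 20 and 4 of 14, beside 7.46% of all genes. In each of these glands 1 gene of each list was called higher than in pancreas. FETUB, fetuin-B, was at 3.31, 43.4 and 70.6 TPM in pancreas (lowest, median and highest) and at most 2.98 TPM in every gland library. AFM, afamin, a carrier of vitamin E, was at 1.68, 10.8 and 17.8 TPM in pancreas and at most 2.24 TPM in the glands. ITIH4, an acute phase relative of the chains that bikunin pairs with, was at 17.6, 69.4 and 102 TPM in pancreas and at most 19.7 TPM in the glands. The log2 differences in parotid gland were -3.55 for FETUB, -2.35 for AFM and -2.26 for ITIH4 (limma adjusted p 7.91e-07, 1.03e-05 and 4.33e-06), each was also called against the other glands, and the signs held with trimmed-mean scaling. CLU was called lower in each gland too, with means of 210 TPM in pancreas and 22.5 TPM in parotid, 54.1 TPM in submandibular and 75.4 TPM in sublingual gland. Its call for sublingual gland (log2 difference -1.52, adjusted p 0.0371) was lost without animal 1, 2, 3, 5 or 6 (adjusted p 0.126, 0.129, 0.11, 0.0699 and 0.148). For FETUB, AFM and ITIH4, chosen after their values were seen, the pancreas library of animal 4 had the lowest value, as it had for TTR.

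Of 19 signals and transcription factors of the acute phase and of hepatocytes, 17 were tested. Against pancreas 13 of 17 were called higher in liver, against parotid gland 17, against submandibular gland 16 and against sublingual gland 14 of 17, with median log2 differences of 1.67, 2.61, 2.61 and 2.21. The same call was made for 23.6, 53.4, 45.1 and 18.7% of all genes. HNF4A, a nuclear receptor of hepatocytes, was at a mean of 48.8 TPM in liver and 1.88 TPM in pancreas, and at most 0.659 TPM in any gland library. CEBPB, a C/EBP factor of the acute phase response, was at 37.1 to 231 TPM in liver, CEBPD at 46.9 to 83.7 TPM and RXRA, a partner of nuclear receptors, at 25.5 to 51.5 TPM. IL6 was listed at 0 in all 6 livers and reached 3.70 TPM in the pancreas of animal 4.

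Of 11 receptors and partners of these plasma proteins 7 were tested, and 7 of 7 were called higher in liver than in each other tissue, with median log2 differences of 2.70, 3.77, 3.20 and 2.41, beside 23.6, 53.4, 45.1 and 18.7% of all genes called. ASGR1 and ASGR2, the chains of the hepatocyte receptor that removes desialylated glycoproteins, were at means of 599 and 402 TPM in liver and at most 11.6 and 3.57 TPM outside it. FCGRT, the receptor chain that returns albumin and IgG to plasma, was at 90.3 to 232 TPM in liver, at most 14.2 TPM in parotid gland and 32.8 to 67.7 TPM in sublingual gland. It reached 219 TPM in the pancreas and 302 TPM in the submandibular gland of animal 4. AMN, part of an uptake receptor for filtered plasma proteins, was at a mean of 63.2 TPM in liver and 16.9 TPM in sublingual gland. The receptor genes LRP2, CUBN and STRA6 and the retinol-esterifying enzyme gene LRAT did not pass the filter. STRA6, the cell surface receptor of RBP4, was at most 0.0413 TPM in liver.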

How the data were processed

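The authors deposited 1 table of TPM values for 30 libraries. Per the labels' protocols, RNA came from 3 sections of 30 µm per sample, was treated with DNase and was sequenced in paired reads of 150 bases on an Illumina HiSeq. Kallisto is among the tools in the submitters' processing notes. Its version, its transcriptome, the genome build and the summing of transcripts to genes are not given in the sources used here. All columns have the same total, so a rise in abundant genes lowers all others, depth is unknown, and no counting interval or detection floor is given. Every column of the table was used.

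Differences were tested with limma 3.58.1 (R 4.3.3) on log2(TPM + 1), a scale on which changes of low genes come out too small. The filter asked for 1 TPM or more in 6 or more libraries. The model held tissue and animal over all 30 libraries, with a trend in the variance, and p-values were two-sided. The animal number is the sample number in the labels, read as the animal because the study states a design within animals. Deviations from the tissue means had a mean correlation of 0.161 between libraries of 1 animal and -0.0186 between animals, and 0 pairs of libraries were identical. Each animal gave 1 library per tissue.

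The members, the gene lists and the tests were chosen with earlier results of these data known. All 10 members are described. From the other lists the text describes the 4 genes highest in liver and those that differ from the rest of their list, and says where they were chosen after their values were seen. The alternatives were no replicate block, a fit to the 12 libraries compared, quantile normalisation, trimmed-mean scaling, no filter, a filter of 5 TPM, a pseudocount of 0.1, no variance trend, leaving out each animal, and leaving out the 3 libraries that stand apart. Leaving out single pancreas or sublingual libraries was added after seeing the data. Dividing by the mean of the 6 livers was also not planned. The fit was tested on simulated data. No sequence, promoter or coordinate was used here. Some genes of the transcription factor list are counted in its totals and are not reported by name here.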

Additional observations from a re-analysis of the deposited data

Results flagged for a closer look

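Of 50 sets of 6 libraries (10 genes in 5 tissues), 3 had 1 library far from the other 5 by Dixon's test, and chance gives about 2.5. RBP4 was at 2227 TPM in the pancreas of animal 4, where the next library held 296 TPM. RBP4 was at 1054 TPM in the submandibular gland of animal 4, where the next held 114 TPM. ORM1 was at 59.0 TPM in the parotid gland of animal 6, where the next held 27.5 TPM. These are the 3 libraries that were left out together as an alternative.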

How the results depend on the processing

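The 4 liver comparisons kept 10 of 10 members called under every alternative. Counts over all genes moved more. Without the 3 libraries that stand apart, the genes called were 7058 for liver against pancreas (4114 in the model described), 3815 for parotid gland against pancreas (2141), 4731 for submandibular gland against pancreas (1316), 5116 for sublingual gland against pancreas (1887), 9398 for parotid against sublingual gland (5625) and 9442 for submandibular against sublingual gland (3787). Quantile normalisation and trimmed-mean scaling gave 2514 and 2178 for submandibular gland against pancreas, 3144 and 2890 for sublingual gland against pancreas, 111 and 97 for parotid against submandibular gland (47), 2434 and 2376 for parotid against sublingual gland, and 2230 and 1995 for submandibular against sublingual gland. With only the 12 libraries compared they were 2582 for submandibular gland against pancreas, 1049 for sublingual gland against pancreas, 666 for submandibular against sublingual gland and 0 for parotid against submandibular gland, where 632 genes had an unadjusted p below 0.05 by limma. The filter of 5 TPM gave 2726 for liver against sublingual gland (4273), 1183 for sublingual gland against pancreas and 29 for parotid against submandibular gland.

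Leaving out each animal in turn gave 2817 to 6575 genes for liver against pancreas, 947 to 2728, 623 to 3946 and 1104 to 4277 for parotid, submandibular and sublingual gland against pancreas, 5 to 86 for parotid against submandibular gland, and 2854 to 8090 and 1281 to 8865 for parotid and submandibular against sublingual gland.

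Of the members, 2 were called for parotid gland against pancreas, and 1 with no replicate block, only 12 libraries, quantile normalisation, trimmed-mean scaling or no filter (leaving out each animal, 1 to 3). For submandibular gland against pancreas 1 was called, 2 with only 12 libraries and 4 without the 3 libraries (leaving out each animal, 1 to 3). For sublingual gland against pancreas 1 was called, and 2 with quantile normalisation or trimmed-mean scaling. For parotid and for submandibular against sublingual gland 1 was called, 0 with only 12 libraries, quantile normalisation or trimmed-mean scaling, and 2 without the 3 libraries (leaving out each animal, 0 to 2). HP against sublingual gland turned sign, to 0.63 and 0.31 for parotid and 0.44 and 0.12 for submandibular gland with quantile normalisation and trimmed-mean scaling. The cause was not tested. The replicate block changed no other call of a member, and without it SAA1 was no longer called between submandibular and sublingual gland (adjusted p 0.0732).

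The split of calls depends on scaling. The percent of calls higher in the tissue named first was 77.7 for liver against pancreas, 92.1, 88.8 and 59.4 for liver against parotid, submandibular and sublingual gland, 14.2, 23.2 and 74.8 for those glands against pancreas, and 2.15 and 2.69 for parotid and submandibular against sublingual gland. With trimmed-mean scaling it was 58.7, 54.0, 55.5, 53.8, 51.3, 51.3, 53.3, 48.1 and 43.9 in that order, and with quantile normalisation 45.0, 44.1, 44.1, 46.6, 49.1, 50.7, 46.1, 53.1 and 53.8.

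Of 1172 log2 differences under an alternative, 1115 kept their direction and side of the threshold. They include every member in the liver comparisons, and no change lay there. All changes lay in comparisons between tissues outside liver, so the total overstates how stable those are. TPM hold no depth, so precision at low levels is unknown, and the table gives no way to separate a shift in all other genes from one in a member.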
